A study of Mus musculus with 6 samples.

Results

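The mitochondrial matrix keeps its own pool of NADPH, the reduced coenzyme that pays for the removal of peroxides. Nicotinamide nucleotide transhydrogenase (Nnt), a protein of the inner membrane, makes NADPH from NADH with the energy of the proton gradient, and the matrix enzymes Idh2 and Me2 can make it from isocitrate and malate. Superoxide that leaks from the respiratory chain is turned into hydrogen peroxide by Sod2, and the peroxide is then removed along 2 routes, through glutathione (Gsr, Gpx1, Glrx2) and through thioredoxin (Txnrd2, Txn2, Prdx3), both of which draw on NADPH. The expression of these 10 genes was compared between WT and CD37KO splenic B cells, out of 19935 genes measured on the arrays. Nnt was chosen by its rise in CD37KO cells in these same arrays, so its values are given as a description. The 9 other genes were chosen by what their enzymes do, but with earlier results of these data known.

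RNA came from spleen cells of 3 WT mice and 3 CD37KO mice, the latter lacking the tetraspanin Cd37. All mice were on a C57BL/6J background, the labels describe them as littermates of 3 months of age, and nothing in the labels adds a treatment. The methods give an older age for mice of this study and say that genotypes were matched for gender. B cells were obtained by removing cells that carry CD43, staining for B220 served to assess purity, and the RNA of each mouse was hybridized to 1 array. The values are log2 expression levels, so a difference of 1 is a doubling of the signal, and levels of different genes are not set against each other because each probe set has its own brightness. Background was set at a log2 level of 5.76, the 95th percentile of 1027 olfactory receptor genes, which B cells are not known to use.

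The arrays carried the markers of B cells, and markers of other cells were detected at levels that differed between arrays. All 10 measured markers of mature B cells were above background in all 6 arrays, and their mean level lay between 11.40 and 11.51. Cd37 itself had levels of 11.99, 11.83 and 12.08 in the WT arrays and of 8.15, 8.17 and 8.17 in the CD37KO arrays. CD37KO minus WT was -3.80 (standard error 0.076; adjusted p = 1.37e-07, limma), in the direction the labels give. The mean of 16 neutrophil markers was 6.09, 5.91 and 6.13 in WT replicates 1 to 3, against 7.65, 6.38 and 6.96 in CD37KO replicates 1 to 3. All 16 had a higher mean in CD37KO, 13 of them at an unadjusted p under 0.05 (limma), against 2.96% of all genes. Only 6 were above background in all 6 arrays. The mean of 16 macrophage and monocyte markers was 8.59, 7.96 and 8.02 in WT and 8.67, 7.70 and 8.65 in CD37KO arrays, so this list overlapped between genotypes but was high in WT replicate 1 and CD37KO replicates 1 and 3. Clec4f, Marco and Ccr2 of that list were below background in all arrays. Of 10 T cell markers, Cd3e, Cd4, Cd5 and Il7r were above background in all arrays and Cd3d and Cd3g in none, and the list mean lay between 5.85 and 5.97 in WT and between 5.84 and 5.85 in CD37KO arrays. The mean of 10 stromal and endothelial markers was 6.507, 6.364 and 6.403 in WT and 6.245, 6.294 and 6.224 in CD37KO arrays, without overlap. Of these, 9 had a lower mean in CD37KO and 4 were lower without overlap, against 7.57% of all genes. The 4 were Igfbp7 (-0.71), Sparc (-0.37) and the defining endothelial genes Cdh5 and Kdr, which were below background in all arrays. Pecam1, above background in all arrays, had a difference of -0.018, and Vwf alone was higher (0.034). Of 8 NK cell markers 7 had a lower mean in CD37KO, and 1, Nkg7, did not overlap (-0.52). The mean was also lower for 7 of the 10 T cell, 6 of 7 platelet and 8 of 11 dendritic cell markers. In each of those lists 2 were lower without overlap. By contrast, 6 of 7 erythroid and 6 of 8 plasma cell markers had a higher mean. Over all 19935 genes, 11598 had a lower mean in CD37KO. The part of these cells in the levels given next was not tested, apart from fits with the neutrophil or the macrophage and monocyte list as a covariate.

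Nnt (Entrez Gene 18115, chromosome 13) was higher in every CD37KO array than in any WT array. Its log2 level was 7.54, 7.49 and 7.53 in WT replicates 1 to 3, and 8.48, 8.51 and 8.44 in CD37KO replicates 1 to 3. The replicates of each genotype were thus nearly equal, and the lowest CD37KO array stood 0.90 above the highest WT array. WT cells averaged 7.52 ± 0.027 and CD37KO cells 8.48 ± 0.037 (SD, n = 3 mice per genotype). The gap between these means was 0.96 on the log2 scale (standard error 0.058, 95% interval 0.82 to 1.09), or 1.94-fold (1.77 to 2.13). Since Nnt was selected on this contrast, no test is attached to it, and the interval makes no allowance for that choice. An exact permutation of 3 arrays against 3 could not give a p below 0.1 for any gene. Among all genes Nnt had the 13th largest rise. The spread between its replicates was small as well, with a residual SD of 0.032 against a median of 0.093 over all genes, and 2.88% of genes varied less. At an adjusted p under 0.05 in limma, 11 of 19935 genes (0.0552%) were called in either direction, and Nnt was among them by the way it was chosen.

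Neutrophil markers were higher and stromal markers lower in the same arrays in which Nnt was high, and their part in its level was not tested. With the neutrophil list as a covariate the Nnt difference was 0.97, with a standard error of 0.1 against 0.058 without it. That covariate does not overlap between genotypes, so the fit cannot divide the difference between genotype and neutrophil content. C57BL/6J mice are known for a spontaneous deletion inside Nnt that leaves no working protein, while many other strains, C57BL/6N among them, carry the whole gene. The Nnt alleles of these mice and the exons read by the probe set were not examined here, so the levels are those of whatever transcript the probe set binds, and not of protein or of enzyme activity. In a bulk sample, fewer cells of a type and less RNA per cell cannot be told apart.

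**Figure D1:**
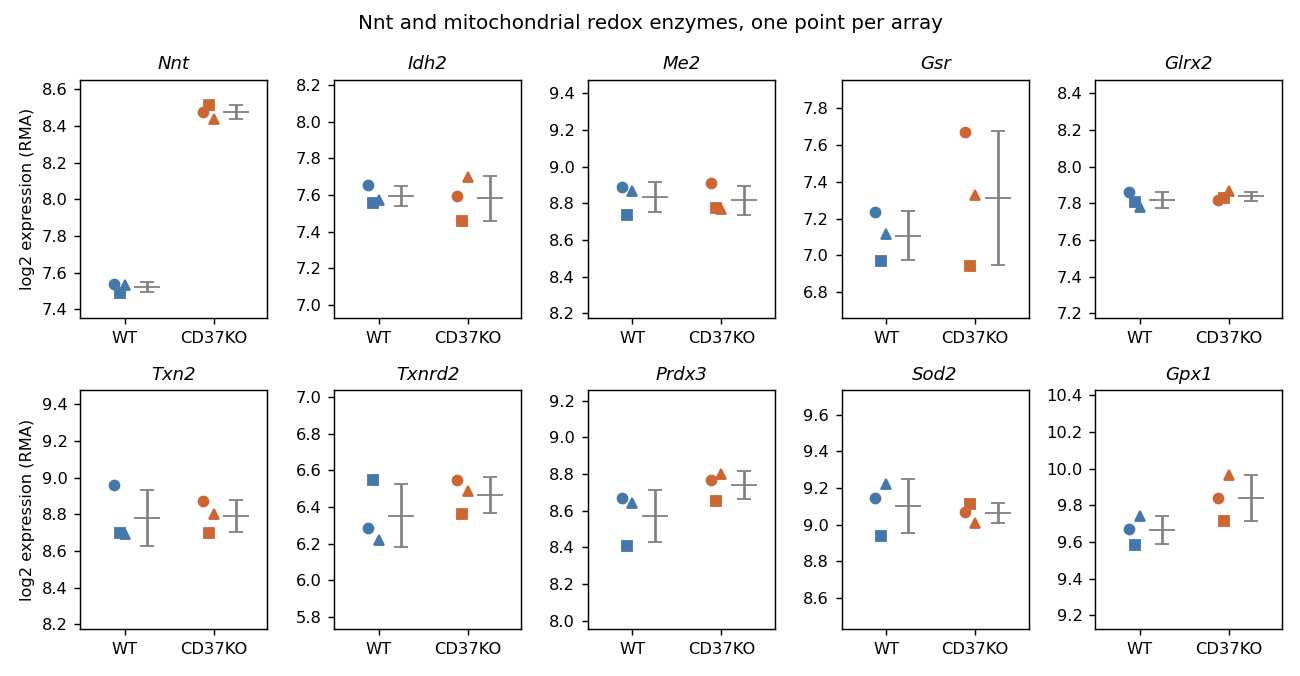
Log2 expression (RMA) of Nnt and 9 mitochondrial redox enzymes in each array, WT in blue and CD37KO in orange, with circles, squares and triangles for replicates 1, 2 and 3, and grey bars for mean ± SD (n = 3). All panels span the same range of log2 units. Only Nnt, which was chosen for its rise, separates the genotypes, with CD37KO arrays between 8.44 and 8.51 and WT arrays between 7.49 and 7.54.

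WT and CD37KO arrays overlapped for all 9 other enzymes. Over all genes, 4.33% were higher and 7.57% lower in CD37KO without overlap, so 0 of 9 is near those shares. At an adjusted p under 0.05 limma called 0 of the 9, and at an unadjusted p under 0.05 also 0, by limma as by ordinary least squares, where limma called 2.96% of all genes higher and 2.99% lower. Differences were positive for 6 of the 9 and negative for 3, with a median of 0.021 against -0.019 over all genes. After another quantile normalization 4 were positive, and their median was -0.017. All 10 genes lay above background in all 6 arrays, and each was read by a single probe set that names no other gene.

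The other sources of matrix NADPH had nearly the same mean in both genotypes. Idh2, the NADP-dependent isocitrate dehydrogenase of mitochondria, had levels of 7.66, 7.56 and 7.57 in WT and 7.59, 7.46 and 7.70 in CD37KO arrays. The CD37KO arrays thus held both the lowest and the highest value, and the difference was -0.013 (95% interval -0.19 to 0.16, adjusted p = 0.978, limma). This interval runs from 0.877-fold to 1.12-fold. Idh2 lies on chromosome 7, as Cd37 does, but 192 measured genes away from it. Me2, the mitochondrial malic enzyme that uses NAD or NADP, was at 8.89, 8.74 and 8.87 in WT and at 8.91, 8.77 and 8.77 in CD37KO arrays. These values interleaved, and the difference was -0.016 (95% interval -0.18 to 0.15, adjusted p = 0.970, limma). Both intervals span differences of either sign.

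Of the enzymes of the glutathione route, Gsr varied most and Glrx2 least. Gsr, the glutathione reductase that serves both cytosol and mitochondria, had levels of 7.24, 6.97 and 7.12 in WT and of 7.67, 6.94 and 7.33 in CD37KO arrays. CD37KO replicates 1 and 3 were above all WT arrays, and CD37KO replicate 2 was below them all. The difference was 0.21 (standard error 0.17, 95% interval -0.17 to 0.59, adjusted p = 0.830, limma), and the residual SD of 0.276 exceeded that of 97.1% of genes. The order of the 6 arrays by Gsr level was the same as their order by the macrophage and monocyte markers, which was seen after both sets of values were known. Without CD37KO replicate 2 the difference in Gsr was 0.39 (unadjusted p = 0.0129, adjusted p = 0.304, limma). With the neutrophil list as a covariate it was -0.35 (unadjusted p = 0.0172, adjusted p = 1.000, limma), but that covariate does not overlap between genotypes. The Gsr difference kept its positive sign in 14 of 15 alternatives.

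Glrx2, the mitochondrial glutaredoxin that removes glutathione from protein thiols, was at 7.86, 7.81 and 7.78 in WT and at 7.82, 7.83 and 7.87 in CD37KO arrays. All 6 values fell between 7.78 and 7.87, with a residual SD of 0.035 that was nearly as small as that of Nnt. The difference was 0.021 (standard error 0.059, 95% interval -0.11 to 0.16, adjusted p = 0.948, limma), which bounds it between 0.925-fold and 1.11-fold. Gpx1, the glutathione peroxidase found in cytosol and mitochondria, had levels of 9.67, 9.59 and 9.74 in WT and of 9.84, 9.72 and 9.97 in CD37KO arrays. CD37KO replicates 1 and 3 exceeded every WT array, and CD37KO replicate 2 lay among them. Its difference of 0.17 had the smallest p of the 9 enzymes (standard error 0.081, 95% interval -0.012 to 0.36, unadjusted p = 0.0629, adjusted p = 0.801, limma).

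The thioredoxin route gave a like picture. Prdx3, the peroxiredoxin of the matrix, had levels of 8.67, 8.41 and 8.64 in WT and of 8.77, 8.65 and 8.80 in CD37KO arrays. Again CD37KO replicates 1 and 3 were above all WT arrays and CD37KO replicate 2 was not. The difference was 0.17 (standard error 0.085, 95% interval -0.027 to 0.36, unadjusted p = 0.0823, adjusted p = 0.801, limma). Txn2, the mitochondrial thioredoxin that Prdx3 relies on, was at 8.96, 8.70 and 8.69 in WT and at 8.87, 8.70 and 8.80 in CD37KO arrays, a difference of 0.0080 (95% interval -0.20 to 0.21, adjusted p = 0.987, limma). Its highest value was that of WT replicate 1, and the genotypes overlapped over most of their range. Txnrd2, the mitochondrial thioredoxin reductase, had levels of 6.29, 6.55 and 6.22 in WT and of 6.55, 6.36 and 6.49 in CD37KO arrays, a difference of 0.11 (95% interval -0.11 to 0.33, adjusted p = 0.833, limma). WT replicate 2 stood apart from the other WT arrays for this gene, and without it the difference was 0.21 (unadjusted p = 0.0302, adjusted p = 0.563, limma).

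Sod2, the manganese superoxide dismutase that feeds both routes with hydrogen peroxide, was at 9.15, 8.94 and 9.22 in WT and at 9.07, 9.12 and 9.01 in CD37KO arrays. The 3 CD37KO values lay inside the WT range. The difference was -0.038 (standard error 0.083, 95% interval -0.23 to 0.15, adjusted p = 0.933, limma).

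**Figure D2:**
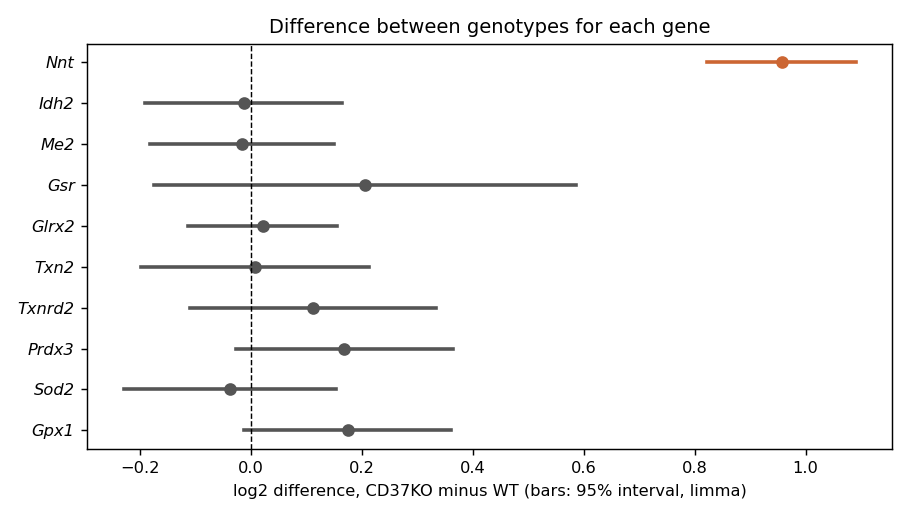
Log2 difference between CD37KO and WT cells for each gene, with points for the difference of means (3 arrays each) and bars for the 95% interval from limma. The intervals of the 9 enzymes other than Nnt all include 0 and end at or below 0.59, whereas that of Nnt, which was chosen for its rise, runs from 0.82 to 1.09.

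Some of the enzymes were high in the same arrays regardless of genotype, and others were not. WT replicate 1, CD37KO replicate 1 and CD37KO replicate 3 were the 3 highest arrays for Idh2, Gsr, Txn2 and Prdx3. For Me2, Glrx2, Txnrd2, Sod2 and Gpx1 the 3 highest arrays were a different set. The share of all genes with either pattern was not counted. WT replicate 1 and CD37KO replicates 1 and 3 also had the highest mean levels of macrophage and monocyte markers. So it was for 7 measured erythroid markers (6.81, 6.55 and 6.70 in WT, 6.93, 6.60 and 6.94 in CD37KO). With the macrophage and monocyte list as a covariate the difference in Prdx3 was 0.14 and in Gpx1 0.15 (standard errors 0.078 and 0.077). With the neutrophil list it was 0.052 and 0.073 (standard errors 0.14 and 0.13). None of these differences had an unadjusted p under 0.05 (limma). The neutrophil list does not overlap between genotypes, so that fit cannot divide a difference between genotype and neutrophil content. Mature B cell markers moved by less across the arrays than any of these lists.

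**Figure D3:**
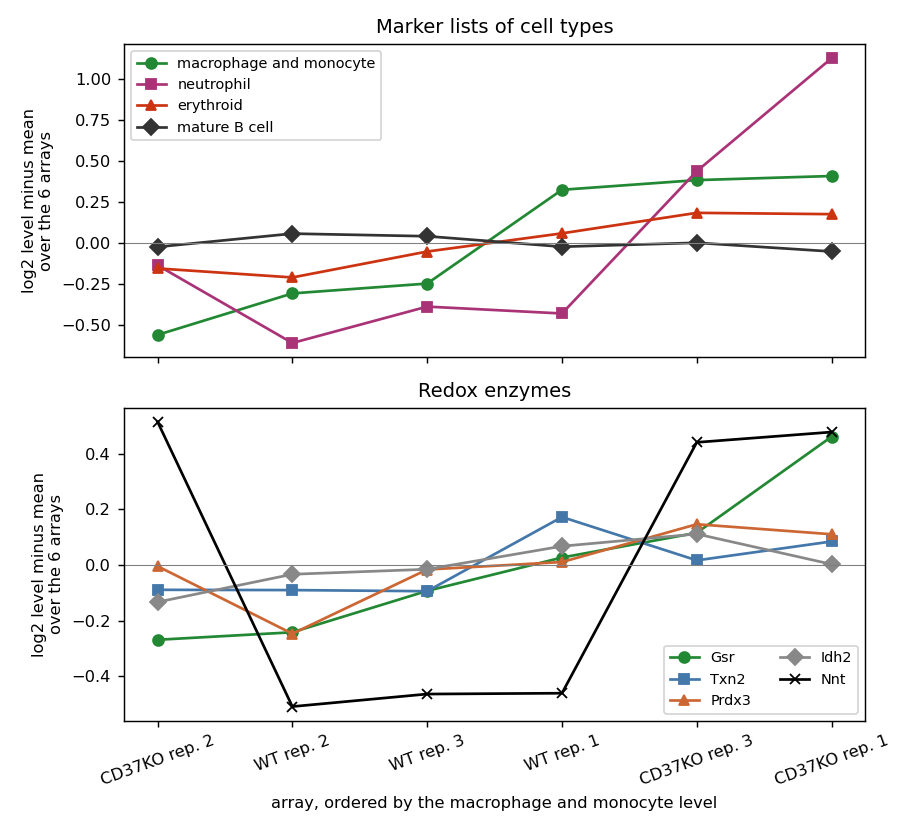
Mean log2 level of 4 marker lists (upper panel) and log2 level of 5 enzymes (lower panel) in each array, both as the distance from the mean over the 6 arrays, with arrays ordered along the horizontal axis by the macrophage and monocyte list. Gsr climbs in the same order as that list and Idh2, Txn2 and Prdx3 are highest in the 3 arrays on the right, while Nnt is high in the 3 CD37KO arrays. Me2, Glrx2, Txnrd2, Sod2 and Gpx1, whose 3 highest arrays were a different set, are not drawn.

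The wider redox machinery was then described from 7 lists of genes that hold none of the 10 members. Of 138 measured genes, 0 passed an adjusted p under 0.05 in limma. Without adjustment, 5 of them were higher and 4 lower at p under 0.05 (limma), against 2.96% and 2.99% of all genes. Without overlap between genotypes, 9 were higher and 6 were lower, against 4.33% and 7.57% of all genes. Differences were positive for 90 of the 138 (65.2%) with a median of 0.037, whereas 41.8% of all genes had a positive difference, with a median of -0.019. The lists held few dim genes, 113 of the 138 being above background in all arrays. Among these 113, 69.0% were positive with a median of 0.045, against 57.0% and 0.017 for all 9880 genes above background. After another quantile normalization the shares above background were 64.6% and 46.1%. With the neutrophil list as a covariate, which does not overlap between genotypes, the median of the 138 was -0.030. The shares above background were then 43.4% and 42.7%.

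Mitochondrial NADPH and NAD(P) supply was the list closest to Nnt in function (median -0.011). Of its 18 measured genes 0 had an unadjusted p under 0.05 (limma), near the shares of all genes, 2.96% higher and 2.99% lower. Nadk2, the mitochondrial NAD kinase that makes NADP, was the sole gene without overlap, at 7.51, 7.59 and 7.56 in WT and 7.61, 7.73 and 7.65 in CD37KO arrays (difference 0.11, unadjusted p = 0.124, limma). The enzymes of mitochondrial one-carbon metabolism, another source of NADPH, had differences of either sign, 0.12 for Shmt2, 0.086 for Mthfd2 and -0.081 for Mthfd1l. In the cytosolic NADPH list of 14 genes (median 0.061) H6pd, a hexose-6-phosphate dehydrogenase of the endoplasmic reticulum, was at 6.85, 6.73 and 6.89 in WT and 6.71, 6.65 and 6.65 in CD37KO arrays (difference -0.15, unadjusted p = 0.0465, adjusted p = 0.801, limma). The citrate carrier Slc25a1 (0.097), Mthfd1 (0.12) and the cytosolic NAD kinase Nadk (0.084) had positive differences that did not pass.

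The glutathione list of 36 measured genes had a median of 0.070, with 2 genes higher and 2 lower at an unadjusted p under 0.05. Slc25a39, the carrier that brings glutathione into mitochondria, had levels of 7.82, 7.42 and 7.62 in WT and of 7.96, 7.73 and 7.96 in CD37KO arrays (difference 0.27, unadjusted p = 0.0416, adjusted p = 0.801, limma). WT replicate 1 lay above CD37KO replicate 2, so the genotypes overlapped. Gstp1, a glutathione S-transferase, did not overlap, although its CD37KO arrays began at 9.923, just above the 9.915 of WT replicate 1 (difference 0.20, unadjusted p = 0.0451). The pair with lower levels was dim. Chac1, which degrades glutathione, was above background in only 2 arrays (difference -0.29, unadjusted p = 0.0249), and Gpx2 in none.

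In the thioredoxin and peroxiredoxin list of 18 genes (median 0.059), 1 gene was higher and 1 lower at an unadjusted p under 0.05, and neither passed after adjustment. Txnip, which binds and inhibits thioredoxin, was at 11.74, 11.61 and 11.81 in WT and at 11.39, 11.56 and 11.48 in CD37KO arrays, without overlap (difference -0.24, standard error 0.076, unadjusted p = 0.0117, adjusted p = 0.801, limma). Txnrd1, the cytosolic counterpart of Txnrd2, was at 6.92, 7.12 and 6.96 in WT and at 7.32, 7.10 and 7.37 in CD37KO arrays (difference 0.26, standard error 0.091, unadjusted p = 0.0196, adjusted p = 0.801, limma). As for Gpx1 and Prdx3, CD37KO replicate 2 was the array within the WT range. Msrb2, a mitochondrial methionine sulfoxide reductase, had a difference of -0.17 and Sesn2, a stress-induced sestrin, one of 0.17, and neither passed without adjustment.

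Of 13 genes for sources and sinks of superoxide (median 0.0045), 0 had an unadjusted p under 0.05 (limma). Over all genes 2.96% were higher and 2.99% lower, so 0 of 13 is near those shares. Without overlap, 1 of the 13 was higher and 1 lower, against 4.33% and 7.57% of all genes. The cytosolic dismutase Sod1 had a difference of 0.063, its copper chaperone Ccs one of 0.064, and the NADPH oxidase subunits Cyba and Cybb had differences of 0.11 and -0.056. Among 19 genes of NRF2, the main regulator of antioxidant genes, and other redox regulators, Blvrb, a biliverdin and flavin reductase that is abundant in red cells, was the sole gene at an unadjusted p under 0.05. It was at 8.52, 8.62 and 8.44 in WT and at 8.78, 8.67 and 8.88 in CD37KO arrays (difference 0.25, standard error 0.078, unadjusted p = 0.0131, adjusted p = 0.801, limma). The small MAF partners of NRF2, Mafk (-0.15) and Mafg (-0.14), and the NRF2 target Osgin1 (0.14) did not pass. Of 20 genes of mitochondrial mass and protein quality (median 0.036), Hspe1, the matrix co-chaperonin, was at 11.43, 11.34 and 11.54 in WT and at 11.62, 11.62 and 11.84 in CD37KO arrays (difference 0.26, standard error 0.085, unadjusted p = 0.0152, adjusted p = 0.801, limma). The matrix protease Lonp1 (0.13) and the outer membrane channel Vdac1 (0.15) were also without overlap, and Immt of the inner membrane had a difference of -0.12.

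These counts and those over all genes changed with the array left out, and were highest or lowest without CD37KO replicate 2 or 3. Without CD37KO replicate 2, the same limma fit put 14 of the 138 genes higher and 4 lower before adjustment, beside 1292 and 1247 of all 19935 genes. Without CD37KO replicate 3, 0 of the 138 were higher and 1 was lower, beside 304 and 274 of all genes. Without WT replicate 2, 3 were higher and 4 lower, beside 739 and 998 of all genes.

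**Figure D4:**
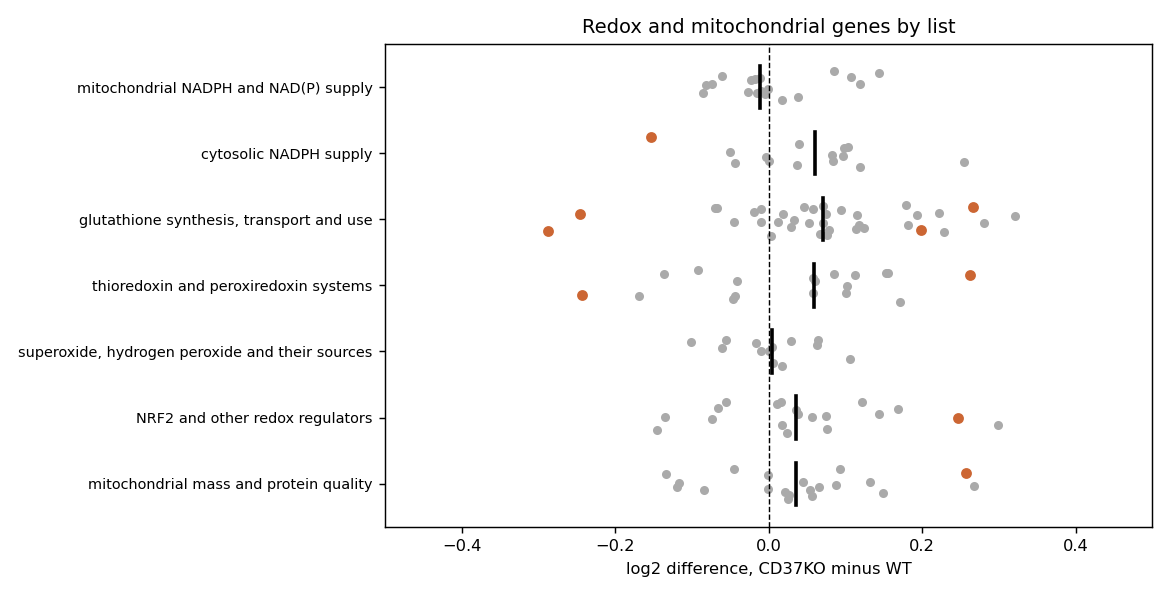
Log2 difference between CD37KO and WT cells for the 138 measured genes of 7 redox and mitochondrial lists, with a point per gene, orange where the unadjusted limma p is under 0.05 and grey otherwise, and a black bar at each list's median. The medians lie between -0.011 and 0.070, and no gene passed after adjustment over all genes.

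The genes around Nnt on chromosome 13 were examined next. In the order of the GRCm38.p6 gene table, the 5 measured genes before and the 5 after Nnt had differences between -0.13 and 0.22 with a median of -0.013. They overlapped between genotypes in all 10 cases, but 3 of them (Gm10732, Fgf10 and Ccl28) were below background in all arrays, where a difference would hardly show. Emb, an adhesion protein 4 measured genes before Nnt, had the largest of these, and the gene on the far side, the translation regulator Paip1, was at -0.025. Parp8 (0.069), Mrps30 (-0.013), Fgf10 (-0.11), Tmem267 (-0.13) and Ccl28 (-0.012) were also among the 10. Over 61 genes, taken as 50 before Nnt and the 11 that remain to the end of the chromosome, the median was -0.043. Of these 61, 0 passed an adjusted p under 0.05 in limma. At an unadjusted p under 0.05, 1 was higher (Il6st, 0.15) and 0 were lower, against 2.96% and 2.99% of all genes. Without overlap, 3 were higher and 2 were lower, against 4.33% and 7.57% of all genes. Only 29 of the 61 were above background in all arrays, and 26 were below it in all. The 29 had differences between -0.13 and 0.22 with a median of -0.0043. As Nnt was chosen for its rise, its size beside theirs is no test.

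**Figure D5:**
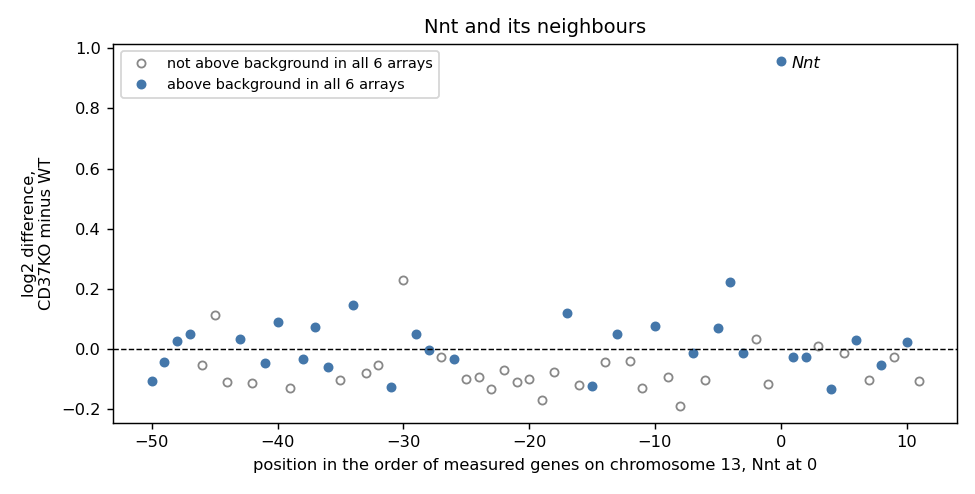
Log2 difference between CD37KO and WT cells for Nnt and the measured genes around it, against position in the gene order of chromosome 13 with Nnt at 0. Filled points mark genes above background in all 6 arrays. Nnt, which was chosen for its rise, stands at 0.96, and its 61 neighbours lie between -0.19 and 0.23.

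The genes whose levels ran most like those of Nnt over the 6 arrays, among those above background in all of them, were Napsa (Pearson r = 0.995), Micu2 (0.995), Dhdh (0.990), Zfp719 (0.988) and Zfp870 (0.987). The arrays fall into the 2 genotypes, so a high r says mainly that a gene separates them with little spread. Their log2 differences were 0.54, 0.13, 1.64, 0.79 and 0.22, and no test is given, as likeness to Nnt chose them. Micu2, a regulator of the mitochondrial calcium uniporter, had levels of 9.18, 9.15 and 9.17 in WT and of 9.29, 9.31 and 9.29 in CD37KO arrays. Its replicates were closer together than those of Nnt, at a much smaller difference. Napsa, Dhdh and Zfp719 lie on chromosome 7 with Cd37, Micu2 on chromosome 14 and Zfp870 on chromosome 17. Over the same arrays the 9 enzymes had r to Nnt between -0.16 (Sod2) and 0.70 (Gpx1).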

How the data were processed

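RNA of splenic B cells was taken from mice that the labels call biological replicates (n = 3 per genotype) and was hybridized to Affymetrix mouse gene arrays. For each probe set the authors deposited a log2 value. According to the submitters' processing notes these values come from RMA, a method of background correction, quantile normalization and probe summary, with the build mm8, whose coordinates are not printed. The sources used here name no software for RMA. RMA draws dim signals together, so differences near background are understated.

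Of 35361 probe sets, 21780 name 1 gene, 1605 several and 11976 none in the annotation used, and 91 kept the array's symbol because their ID was not found. The brightest probe set naming 1 gene was kept for each of 19935 genes. The gene table of GRCm38.p6 served for names and gene order. CD37KO was compared with WT by limma 3.58.1 in R 4.3.3, with moderated two-sided tests from lmFit and eBayes adjusted by Benjamini-Hochberg over all genes, and the procedure was checked on simulated data. The number of arrays limits precision.

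The 10 genes, the lists and the tests were chosen with earlier results of these data known. Named were the 10 genes, Cd37, up to 4 genes with a group mean above background and the smallest p in each list, 5 genes most like Nnt and 5 on each side of it. Gpx2, Il6st and the marker genes given with values were named after their values were seen. Fdxr, G6pdx, Ggt1, Prdx5, Prdx6, Ucp2 and Phb, which lacked a probe set of their own in the annotation, were not analysed here. Alternatives were another quantile normalization, centring, the mean of probe sets, a filter on dim genes, other variance models, array weights, the replicate block, marker lists as covariates, leaving out each array and other background levels.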

Additional observations from a re-analysis of the deposited data

How the results depend on the processing

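None of the 9 enzymes other than Nnt and none of the 138 genes of the lists passed an adjusted p under 0.05 in any of 16 alternatives. The difference in Nnt was 0.90 with another quantile normalization and between 0.94 and 0.98 when 1 array was left out. The number of genes called, 11, became 3 with ordinary least squares, 19 with array weights, 4 with the replicate block and 2 with the neutrophil covariate, and lay between 4 and 14 when 1 array was left out. It was 4 without replicate 1 of either genotype and without CD37KO replicate 3, 6 without WT replicate 2, 5 without WT replicate 3 and 14 without CD37KO replicate 2. Over all genes, the deviations of samples with the same replicate number had correlations of 0.238, 0.007 and -0.139. Those of samples with different numbers lay between -0.367 and 0.312. With 3 arrays a genotype, these values cannot show whether the numbers pair the mice. The block left the differences as they were, and brought Gpx1 to an unadjusted p of 0.0412. Array weights did so for Gpx1 (0.19, unadjusted p = 0.0162) and Txnrd2 (0.18, unadjusted p = 0.0311), as did leaving out CD37KO replicate 2 for Gpx1 (0.24, unadjusted p = 0.0191, limma).

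Differences near 0 changed sign. Glrx2 was at -0.034 with another quantile normalization and -0.0050 with array weights. Txn2 was at -0.017 and -0.090 in the same fits, at -0.028 with the macrophage covariate and at -0.13 with the neutrophil covariate, and Gsr was at -0.35 with the latter. When 1 array was left out, Idh2 ranged from -0.072 to 0.051, Me2 from -0.063 to 0.014, Sod2 from -0.12 to 0.022 and Txn2 from -0.037 to 0.096. Gpx1, Prdx3 and Txnrd2 kept their sign in all 15 alternatives run for them. With background at the 99th percentile, 9 of the 10 genes were above it in all arrays, Txnrd2 being the exception. An effect of the size of those of Gpx1 and Prdx3 is within what 3 arrays a genotype leave undecided.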
